A study of Mus musculus with 18 samples.

Results

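Expression of 10 genes for C-type lectins and scavenger receptors was followed in mouse bone marrow-derived macrophages (BMDM) given inhibitors of choline metabolism and then polarized with IL-4. The genes were *Mrc1*, *Clec10a*, *Clec7a*, *Clec4d*, *Clec4e*, *Clec4n*, *Clec12a*, *Msr1*, *Marco* and *Stab1*, and they are 10 of 55385 genes in the count table. They were chosen by name as pattern recognition and clearance receptors of macrophages, with earlier results of these data known. The cells came from the marrow of female C57BL/6J mice aged 12 weeks and were grown with L929-conditioned medium, a source of M-CSF. The cells then received vehicle (Veh, 0.1% DMSO), 250 µM hemicholinium-3 (HC3), which blocks choline uptake, or 5 µM RSM-932a (RSM), which inhibits choline kinase. Inhibitor or vehicle was given for 24 h. IL-4 at 20 ng/mL was then present (M[IL-4]) or absent (naïve, M[0]) during a further 24 h. Each of the 6 groups has 3 libraries, 18 in all, and the labels name 3 individual mice without stating which library came from which mouse. The doses of HC3 and RSM differ, so values under the inhibitors are those of these doses.

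C-type lectins bind sugars and lipids on microbes, dying cells and serum glycoproteins. Some of them take up their ligand, whereas others signal through Syk and the adaptor CARD9 by an activating motif, or through phosphatases such as SHP-1 by an inhibitory motif. Scavenger receptors bind modified lipoproteins, matrix fragments and bacteria and deliver them to lysosomes. In macrophages, IL-4 acts through the transcription factor STAT6, and the mannose receptor *Mrc1* and the galactose-type lectin *Clec10a* are long-standing markers of the IL-4-polarized state.

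Totals were 17457796 to 19522255 counts per library, and the 10 genes together took 0.136% to 0.535% of them. 9 genes reached at least 10 counts in all 18 libraries, and *Marco* did so in none. Levels are given as CPM, the counts of a gene relative to the library total, scaled by the trimmed mean of M-values (TMM). The 7 macrophage markers (*Adgre1*, *Csf1r*, *Cd68*, *Lyz2*, *Mertk*, *Fcgr1* and *Itgam*) were all expressed, with summed levels of 19650.3 to 20764.8 CPM in Veh M[0], 8459.9 to 9555.9 with HC3 and 15244.4 to 16775.0 with RSM. In M[IL-4] the same sums were 11663.1 to 12026.9, 7402.8 to 8593.0 and 10451.9 to 12849.0 CPM for Veh, HC3 and RSM. By mean, *Lyz2* was the largest part of each sum, at 11633.1 CPM in naïve Veh cells and 4530.6 after IL-4. RSM left *Lyz2* unchanged in naïve cells (log2 fold change 0.003), whereas every other marker fell, from -0.55 (*Cd68*) to -1.205 (*Csf1r*). After IL-4, *Fcgr1* was higher than Veh with each inhibitor (0.66), whereas *Csf1r* was lower (-0.865 with HC3, -0.71 with RSM). With Veh, IL-4 left *Cd68* unchanged (0.002) and the other markers were lower. Stromal markers, of which 5 of 6 were tested, summed to 507 to 855 CPM in Veh M[0], 1198.8 to 1643.8 with HC3 and 998 to 1422.6 with RSM, and to 278 to 648, 550 to 1037.9 and 527 to 1044.9 CPM in M[IL-4]. *Col1a1*, *Col1a2* and *Col3a1* made up most of the stromal sums. *Dcn* fell with RSM, from a mean of 8.50 to 2.99 CPM in M[0] and from 5.93 to 2.02 in M[IL-4]. *Pdgfra* overlapped Veh with each inhibitor. B cell markers, of which 2 of 5 were tested, summed to 21.3 to 27.8 CPM in Veh M[0] and to 0.357 to 7.06 CPM in the other groups. The Veh sums were mostly *Ighm*, with means of 23.5 CPM in M[0] and 5.54 in M[IL-4]. *Cd79b*, the other tested gene, had Veh means of 0.650 and 0.209 CPM and passed the criteria in no comparison. Endothelial markers, of which 2 of 5 were tested, summed to 69.7 to 84.9 CPM with RSM in M[0] and 43.4 to 51.0 CPM with RSM in M[IL-4], in each case above the other groups of the same polarization, and the lowest sum was 14.3 CPM with Veh in M[IL-4]. With RSM these sums were mostly *Kdr*, whose mean rose from 22.5 to 76.7 CPM in M[0] and from 7.71 to 40.8 in M[IL-4]. *Pecam1* went the other way with RSM, from 3.23 to 0.297 CPM in M[0] and from 8.29 to 5.48 in M[IL-4]. The marker sums thus moved with the treatments, and their part in the values below was not tested. Markers of T cells, neutrophils, dendritic cells, basophils and mast cells summed to at most 3.25 CPM per list in any library, and *Cd3d*, *Cd3g*, *Elane*, *S100a9* and *Fcer1a* were at 0. In bulk RNA, fewer cells of a type and less RNA per cell cannot be told apart.

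Positions are given on GRCm38. *Clec4n* (chr6:123229843-123247021), *Clec4d* (chr6:123262111-123275265) and *Clec4e* (chr6:123281789-123289870, reverse strand) lie within 60.0 kb of chromosome 6 that holds no other tested gene. *Clec12a* (chr6:129342691-129365303) and *Clec7a* (chr6:129461591-129472779, reverse strand) span 130 kb of the same chromosome with *Clec1a* between them. The others are *Mrc1* (chr2:14229392-14332057), *Clec10a* (chr11:70156197-70170834), *Msr1* (chr8:39581685-39642673, reverse strand), *Marco* (chr1:120474538-120505024, reverse strand) and *Stab1* (chr14:31139013-31168641, reverse strand). 7 of the 10 genes have an entry in a RefSeq promoter table of GRCm38.p6, and 3 windows of 250 bases before the gene start are shown because they belong to a gene that was higher with IL-4 (*Clec7a*), a gene that was higher with both inhibitors (*Clec4e*) and a gene that was lower with HC3 (*Stab1*). *Clec7a* has 2 starts in the table and the first is shown. Capitals mark matches on either strand to TTC and GAA 4 bases apart (the spacing that STAT6 binds), TTCNNNGAA (other STAT factors), GAGGAA (the core bound by the macrophage factor PU.1), TTGCNNAA (C/EBP) or TGANTCA (AP-1).
Clec7a, chr6:129472780-129473029, reverse strand: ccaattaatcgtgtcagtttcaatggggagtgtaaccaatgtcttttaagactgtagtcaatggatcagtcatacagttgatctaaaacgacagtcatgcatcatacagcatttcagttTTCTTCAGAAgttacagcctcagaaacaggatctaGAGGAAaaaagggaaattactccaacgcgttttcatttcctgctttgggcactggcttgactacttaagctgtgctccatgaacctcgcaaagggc
Clec4e, chr6:123289872-123290121, reverse strand: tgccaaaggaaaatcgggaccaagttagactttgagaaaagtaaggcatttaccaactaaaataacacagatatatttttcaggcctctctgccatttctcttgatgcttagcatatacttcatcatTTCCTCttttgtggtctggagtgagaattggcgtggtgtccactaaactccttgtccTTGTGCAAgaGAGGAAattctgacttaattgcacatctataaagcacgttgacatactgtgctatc
Stab1, chr14:31168642-31168891, reverse strand: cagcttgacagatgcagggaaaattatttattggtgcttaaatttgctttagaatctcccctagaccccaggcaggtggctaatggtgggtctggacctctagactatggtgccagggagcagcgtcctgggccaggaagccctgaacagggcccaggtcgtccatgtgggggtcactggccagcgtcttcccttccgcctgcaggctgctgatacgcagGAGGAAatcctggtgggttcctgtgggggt
The *Clec7a* window held the STAT6 spacing at -131 and GAGGAA at -96 from the start. *Clec4e* held TTGCNNAA at -66 and GAGGAA at -123 and -56, and *Stab1* held GAGGAA at -30. *Mrc1*, also higher with IL-4, has a window that is not shown. It held GAGGAA at -180, -167 and -35, with 0 matches to the STAT6 spacing and 0 to TTCNNNGAA. No window of the 7 genes other than that of *Clec7a* held the STAT6 spacing. The RefSeq starts can differ from the gene positions given above. All 250 bases of the *Clec12a* window and 22 bases of the *Mrc1* window lie in annotated exons of the same gene. Of 27025 promoters of this length, 5.86% contained the STAT6 spacing, 7.18% TTCNNNGAA, 23.1% GAGGAA, 9.55% TTGCNNAA and 6.87% TGANTCA. These matches describe the letters and no factor was measured at them.

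The receptors differed widely in level, and the order changed with polarization. Exon length here is that of all annotated exons of a gene merged, for example 1.599 kb for *Clec4d*, 4.965 kb for *Clec4e* and 5.528 kb for *Clec12a*. The order between genes depends on these lengths, which may exceed those of the transcripts expressed. Per kilobase of exon, *Clec4d* had the highest level in each M[0] group, at 287 ± 33.0 CPM per kb (SD, n = 3) in Veh, 213 ± 28.2 with HC3 and 378 ± 39.0 with RSM. It was followed in Veh M[0] by *Stab1* (146 ± 14.4), and then by *Clec12a* (99.2 ± 8.27) and *Clec7a* (97.2 ± 10.6), whose libraries overlapped. In Veh M[IL-4], *Clec7a* (290 ± 49.6 CPM per kb) and *Mrc1* (280 ± 39.7) headed the order and did not separate from each other. With RSM in M[IL-4], *Mrc1* stood alone at 485 ± 36.4 CPM per kb, and *Clec7a* (189 ± 40.3) and *Clec4d* (185 ± 28.8) overlapped. With HC3 in M[0], the 7 genes from *Clec7a* (44.5 ± 10.8 CPM per kb) to *Clec4n* (17.2 ± 6.39) each overlapped the next.

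**Figure D1:**
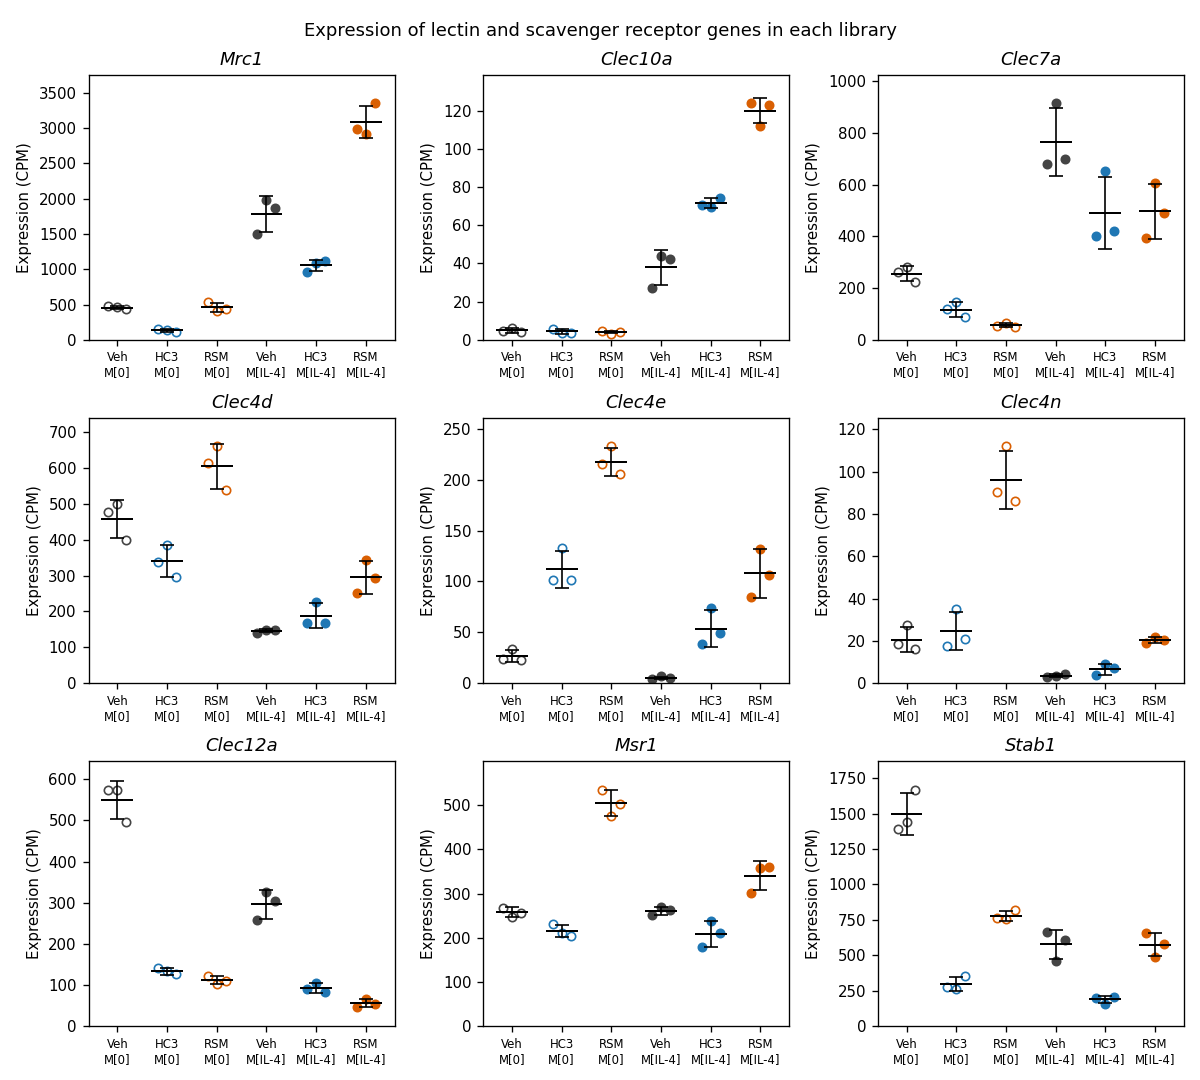
Expression in CPM (vertical axis, linear, from 0) of the 9 tested genes in 6 groups (horizontal axis). Circles are single libraries (open for M[0], filled for M[IL-4], grey for Veh, blue for HC3, orange for RSM), and lines with bars are the mean ± SD of 3 libraries. *Mrc1* libraries with RSM in M[IL-4] lie at 2922.4 to 3354.5 CPM, above every other group.

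*Mrc1* encodes the mannose receptor CD206, which takes up mannosylated glycoproteins. Its level was 475, 462 and 433 CPM in Veh M[0], 155, 135 and 113 CPM with HC3, and 529, 413 and 434 CPM with RSM. In M[IL-4] it was 1499.5, 1985.2 and 1864.8 CPM with Veh, 968, 1089.1 and 1115.1 CPM with HC3, and 2992.3, 2922.4 and 3354.5 CPM with RSM. All M[IL-4] libraries were above all M[0] libraries, RSM and Veh overlapped in M[0], and every other pair of neighbouring groups was separate. In M[0], HC3 lowered *Mrc1* by 1.77 on the log2 scale (SE 0.12, FDR = 9.06e-10), which is 3.40-fold. RSM in M[0] differed from Veh by a log2 fold change of 0.01 (SE 0.12, FDR = 0.975). In M[IL-4] the 2 inhibitors lay on opposite sides of Veh, HC3 at -0.75 (SE 0.12, FDR = 3.90e-05) and RSM at 0.79 (SE 0.12, FDR = 2.08e-05), both short of a log2 fold change of 1. IL-4 raised *Mrc1* by 1.97 with Veh, 2.98 with HC3 and 2.75 with RSM (SE 0.12 to 0.13). These IL-4 effects exceeded that with Veh by 1.01 for HC3 (SE 0.17, FDR = 0.000942) and 0.79 for RSM (SE 0.16, FDR = 0.00429), although the first was 0.93 with an FDR of 0.0810 without replicate 3.

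*Clec10a* encodes the macrophage galactose-type lectin MGL1 (CD301a). Its M[0] levels were low, at 4.81, 6.40 and 3.93 CPM with Veh, 5.78, 3.79 and 3.74 with HC3 and 4.59, 3.24 and 4.31 with RSM. In M[IL-4] they were 27.3, 43.8 and 42.5 CPM with Veh, 70.5, 69.6 and 74.4 with HC3, and 124, 112 and 123 with RSM. The 3 M[0] groups overlapped, and the 3 M[IL-4] groups were separate from M[0] and from each other in the order Veh, HC3, RSM. RSM raised *Clec10a* in M[IL-4] by 1.66 on the log2 scale (SE 0.16, FDR = 8.12e-08), and HC3 was higher by 0.92 (SE 0.16, FDR = 0.000108), short of the fold threshold. That HC3 value was 1.06 and past the threshold without replicate 2. The rise with IL-4 was 2.91 with Veh, 4.01 with HC3 and 4.89 with RSM. It was larger than with Veh by 1.98 for RSM (SE 0.28, FDR = 0.000116) and by 1.10 for HC3 (SE 0.28, FDR = 0.0212), and the HC3 value gave an FDR of 0.0926 without replicate 2 and 0.187 without replicate 3. *Clec10a* shares a stretch of 240 bp, at 98% identity or more, with its neighbour *Mgl2*, so reads of the pair may not be fully separated. *Mgl2* itself had group means of 0.0727, 0.173 and 0.104 CPM in M[0] for Veh, HC3 and RSM, and of 155, 98.9 and 347 CPM in M[IL-4]. RSM thus stood highest for both galactose-type lectins in M[IL-4], whereas HC3 was above Veh for *Clec10a* and below it for *Mgl2* (log2 fold change -0.64, FDR = 0.00644).

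*Clec7a* encodes Dectin-1, the β-glucan receptor of fungal recognition, and GENCODE lists the gene as a polymorphic pseudogene. In M[0] it was at 264, 280 and 225 CPM with Veh, 120, 145 and 87.7 with HC3 and 53.7, 65.1 and 50.4 with RSM. In M[IL-4] it was at 678, 915 and 699 CPM with Veh, 400, 652 and 420 with HC3, and 395, 607 and 489 with RSM. The M[0] groups formed 3 separate steps downward from Veh to RSM, and in M[IL-4] both inhibitors lay below Veh and overlapped each other. Both inhibitors lowered *Clec7a* in M[0], HC3 by 1.13 (SE 0.20, FDR = 0.000148) and RSM by 2.18 (SE 0.21, FDR = 9.31e-08) on the log2 scale. In M[IL-4] the log2 fold changes were -0.64 (FDR = 0.0139) and -0.62 (FDR = 0.0169), neither past the fold threshold. The rise with IL-4 was 1.58 with Veh, 2.06 with HC3 and 3.14 with RSM. It was larger with RSM than with Veh by 1.57 (SE 0.28, FDR = 0.00127, and 0.0522 without replicate 3). For HC3 the difference was 0.49 (FDR = 0.364).

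*Clec4d*, *Clec4e* and *Clec4n* encode MCL, Mincle and Dectin-2, which bind mycobacterial glycolipids (MCL and Mincle) or α-mannans (Dectin-2) and signal through the Fc receptor γ chain and Syk. *Clec4e* stood at 24.0, 33.1 and 23.1 CPM in Veh M[0], 101, 133 and 101 with HC3, and 216, 233 and 206 with RSM. After IL-4 it was at 3.77, 6.44 and 4.82 CPM with Veh, 38.2, 73.4 and 49.1 with HC3, and 84.5, 132 and 106 with RSM. Every inhibitor library was above every Veh library of the same polarization, and every RSM library above every HC3 library. In M[0], *Clec4e* rose by 2.07 (HC3, SE 0.21) and 3.03 (RSM, SE 0.22), and in M[IL-4] by 3.42 and 4.43 (SE 0.26 each), with FDR from 1.40e-10 to 2.27e-07. This was the largest inhibitor effect among the 9 genes in M[IL-4], at 10.7-fold for HC3 and 21.6-fold for RSM. IL-4 lowered *Clec4e* by 2.42 with Veh (SE 0.26, FDR = 9.63e-07). With HC3 and RSM the falls were 1.06 and 1.02, and both missed the call without replicate 1 (-0.93 and -0.89) or without replicate 3 (FDR = 0.0692 and 0.0579). The IL-4 effect differed from that with Veh by 1.36 for HC3 (FDR = 0.0194) and 1.40 for RSM (FDR = 0.0104), with FDR of 0.264 and 0.192 without replicate 3 and, for HC3, 0.0529 without replicate 1.

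*Clec4n* rose with RSM and not, by the same criteria, with HC3. Levels were 18.3, 27.3 and 16.1 CPM in Veh M[0], 17.7, 34.8 and 20.9 with HC3 and 90.3, 112 and 86.1 with RSM. In M[IL-4] they were 2.91, 3.43 and 4.14 CPM with Veh, 3.68, 8.80 and 7.28 with HC3 and 18.8, 21.9 and 20.2 with RSM. RSM libraries were separate from both other groups in each polarization, and HC3 overlapped Veh in each. With RSM the log2 fold change was 2.23 in M[0] (SE 0.24, FDR = 5.50e-07) and 2.54 in M[IL-4] (SE 0.30, FDR = 1.45e-06). With HC3 it was 0.26 in M[0] (FDR = 0.427) and 0.92 in M[IL-4] (FDR = 0.0329), the latter 1.09 and past the threshold without replicate 1. IL-4 lowered *Clec4n* under every treatment, by 2.55 with Veh, 1.89 with HC3 and 2.24 with RSM, and the tested differences from the fall with Veh did not pass for HC3 (FDR = 0.416) or RSM (FDR = 0.733).

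*Clec4d*, located between the other two, moved less. It was at 477, 499 and 399 CPM in Veh M[0], 338, 386 and 296 with HC3 and 616, 661 and 538 with RSM. In M[IL-4] it was at 140, 149 and 148 CPM with Veh, 168, 227 and 168 with HC3 and 252, 344 and 292 with RSM. All groups of 1 polarization were separate, with HC3 below Veh in M[0] and above it in M[IL-4]. The only inhibitor comparison that passed was RSM in M[IL-4], with a log2 fold change of 1.02 (SE 0.13, FDR = 4.59e-06), which was 0.90 without replicate 2. The other 3 were -0.43 for HC3 and 0.40 for RSM in M[0] and 0.37 for HC3 in M[IL-4], with FDR of 0.0116, 0.0182 and 0.0335. IL-4 lowered *Clec4d* by 1.65 with Veh (FDR = 1.98e-08) and by 1.03 with RSM (FDR = 1.08e-05, and -0.92 without replicate 1), and the value with HC3 was -0.86 (FDR = 0.000122). The IL-4 effect was less negative than with Veh by 0.80 for HC3 (FDR = 0.0132) and 0.62 for RSM (FDR = 0.0400).

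*Clec12a* encodes an inhibitory receptor with an intracellular inhibitory motif that recognizes uric acid crystals of dead cells. It was at 575, 575 and 496 CPM in Veh M[0], 141, 133 and 126 with HC3, and 123, 102 and 110 with RSM. In M[IL-4] it was at 258, 327 and 304 CPM with Veh, 91.4, 105 and 82.5 with HC3, and 47.9, 66.6 and 54.8 with RSM. No inhibitor library reached any Veh library of the same polarization. *Clec12a* fell in all 4 inhibitor comparisons, by 2.04 (HC3) and 2.30 (RSM) in M[0] and by 1.67 (HC3) and 2.39 (RSM) in M[IL-4], with SE of 0.12 and FDR from 2.19e-11 to 2.05e-09. With IL-4 it was lower by 0.89, 0.52 and 0.99 on the log2 scale for Veh, HC3 and RSM, under the fold threshold in each case, and the RSM value was -1.05 with library-size scaling and -1.19 without replicate 2. *Clec7a*, at the other end of the same 130 kb, was also lower with both inhibitors in M[0], but it was higher with IL-4.

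**Figure D2:**
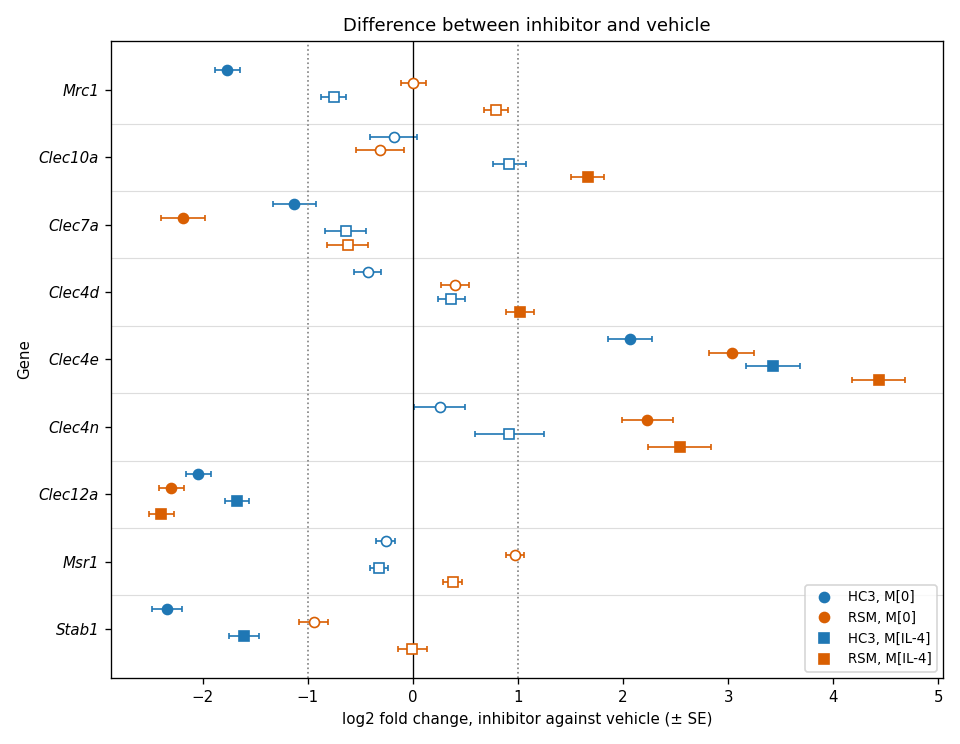
log2 fold change of inhibitor against vehicle (horizontal axis, ± SE) for 9 genes (vertical axis) in M[0] (circles) and M[IL-4] (squares), with HC3 in blue and RSM in orange. Filled symbols passed the FDR and fold criteria, dotted lines mark log2 fold changes of -1 and 1, and *Clec4e* lies at 2.07 to 4.43 whereas *Clec12a* lies at -2.39 to -1.67.

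*Msr1*, the class A scavenger receptor for modified lipoproteins, was at 268, 247 and 257 CPM in Veh M[0], 230, 211 and 205 with HC3 and 535, 476 and 503 with RSM. In M[IL-4] it was at 252, 269 and 263 CPM with Veh, 179, 237 and 210 with HC3 and 302, 357 and 360 with RSM. HC3 lay below Veh and RSM above it in both polarizations, with no overlap. None of these differences passed the fold threshold. RSM in M[0] came closest at 0.97 (SE 0.09, FDR = 4.50e-08), and it was 1.03 with library-size scaling. The log2 fold change for HC3 was -0.26 in M[0] (FDR = 0.0222) and -0.32 in M[IL-4] (FDR = 0.00650), and that for RSM in M[IL-4] was 0.38 (FDR = 0.00187). IL-4 gave 0.02 with Veh (FDR = 0.887), -0.04 with HC3 (FDR = 0.817) and -0.57 with RSM (FDR = 8.85e-05), and the RSM value was lower than that with Veh by a tested difference of -0.59 (SE 0.12, FDR = 0.00418).

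*Stab1* encodes stabilin-1, which clears modified lipoproteins and extracellular matrix products. It was at 1393.5, 1437.8 and 1669.0 CPM in Veh M[0], 277, 261 and 352 with HC3 and 766, 755 and 819 with RSM. In M[IL-4] it was at 664, 463 and 605 CPM with Veh, 199, 160 and 209 with HC3 and 655, 490 and 580 with RSM. HC3 was lowest in each polarization, and RSM lay between HC3 and Veh in M[0] but overlapped Veh in M[IL-4]. HC3 lowered *Stab1* by 2.34 in M[0] (SE 0.14, FDR = 1.96e-10) and by 1.61 in M[IL-4] (SE 0.14, FDR = 3.61e-08). The RSM values were -0.94 (SE 0.14, FDR = 1.86e-05) and -0.01 (SE 0.14, FDR = 0.977). IL-4 lowered *Stab1* by 1.38 with Veh (FDR = 3.67e-07), and the values with HC3 and RSM were -0.65 and -0.44, less negative by 0.73 (FDR = 0.0302) and 0.94 (FDR = 0.00399). The exons of *Stab1* overlap those of *Nt5dc2* on the opposite strand over 1.089% of their length, and the counting was not stated to use strand.

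*Marco*, a class A scavenger receptor for bacteria and particles, was close to absent. Its counts were 7, 7 and 4 in Veh M[0], 1, 2 and 5 with HC3 and 0, 5 and 0 with RSM. In M[IL-4] they were 0, 2 and 4 with Veh, 0, 0 and 2 with HC3 and 0 in all 3 RSM libraries. The limit that a count of 0 allows (3 counts in 1 library) was 0.153 to 0.176 CPM. The Veh M[0] libraries were all above those with RSM in M[IL-4], but the gene was under the count filter and was not tested.

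Calls were then counted by comparison, a call being a Benjamini-Hochberg FDR under 0.05 over the 14979 genes tested with edgeR together with a log2 fold change of at least 1 in size. HC3 in M[0] gave 4 of 9 genes called lower (*Mrc1*, *Clec7a*, *Clec12a*, *Stab1*) and 1 higher (*Clec4e*), where 6.11% of all genes were called lower and 5.93% higher. The median log2 fold change was -0.43 over the 9 genes and 0.02 over all genes. RSM in M[0] gave 2 lower (*Clec7a*, *Clec12a*) and 2 higher (*Clec4e*, *Clec4n*), against 6.51% and 5.05% of all genes, with medians of 0.01 for the 9 genes and 0.01 for all. In each polarization the 2 inhibitor comparisons share their Veh libraries.

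In M[IL-4], HC3 gave 2 lower (*Clec12a*, *Stab1*) and 1 higher (*Clec4e*), against 5.53% and 4.72% of all genes, and the medians were -0.32 and 0.01. RSM in M[IL-4] gave 1 lower (*Clec12a*) and 4 higher (*Clec10a*, *Clec4d*, *Clec4e*, *Clec4n*), against 6.00% and 5.05% of all genes, and the medians were 0.79 and 0.02. RSM in M[IL-4] was therefore the inhibitor comparison with the most receptors called higher. *Clec4e* and *Clec4n* were also called higher with RSM in M[0], and *Clec10a* and *Clec4d* were not.

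**Figure D3:**
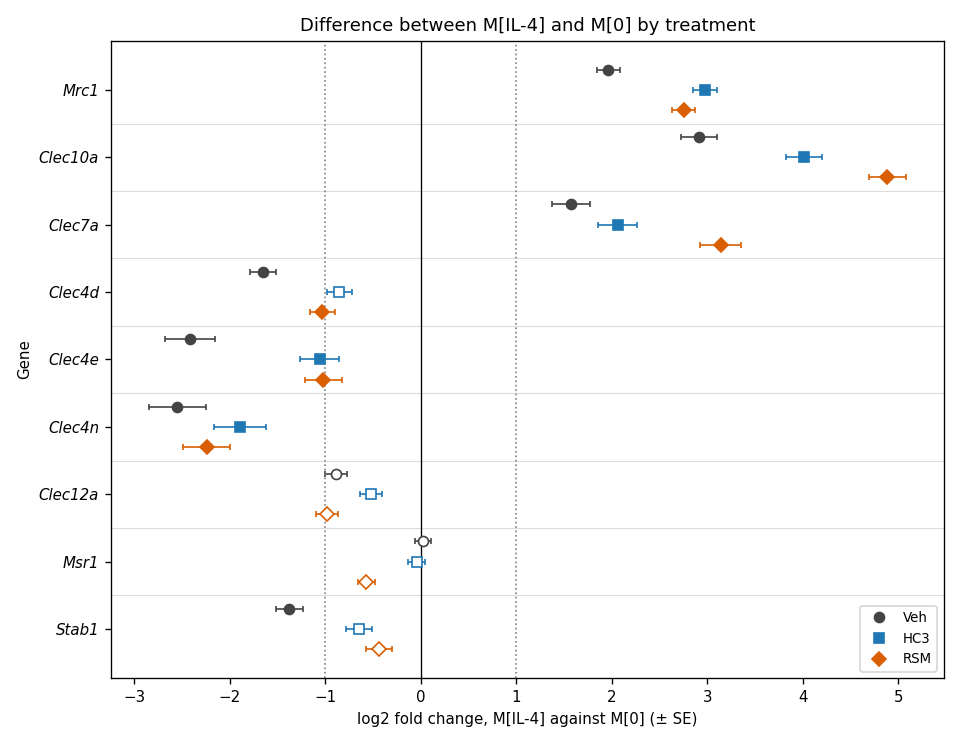
log2 fold change of M[IL-4] against M[0] (horizontal axis, ± SE) for 9 genes (vertical axis) under Veh (grey circles), HC3 (blue squares) and RSM (orange diamonds). Filled symbols passed the FDR and fold criteria, and *Clec10a* moves from 2.91 with Veh to 4.01 with HC3 and 4.89 with RSM.

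Polarization was compared under each treatment. With Veh, IL-4 gave 3 genes called higher (*Mrc1*, *Clec10a*, *Clec7a*) and 4 lower (*Clec4d*, *Clec4e*, *Clec4n*, *Stab1*), against 2.83% and 3.83% of all genes, and the medians were -0.89 and -0.01. With HC3 the same 3 were higher and 2 were lower (*Clec4e*, *Clec4n*), against 1.82% and 2.14%, with medians of -0.52 and -0.01. With RSM the same 3 were higher and 3 were lower (*Clec4d*, *Clec4e*, *Clec4n*), against 2.45% and 1.81%, with medians of -0.57 and 0.00. *Mrc1*, *Clec10a* and *Clec7a* were thus called higher under every treatment, and the neighbours *Clec4e* and *Clec4n* lower under every treatment, while *Clec12a* and *Msr1* were not called under any. The number lower fell to 1 without replicate 1 or replicate 3 with HC3, and to 1 without replicate 1 with RSM.

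The test of whether an inhibitor altered the IL-4 effect gave 3 genes called higher for HC3 (*Mrc1*, *Clec10a*, *Clec4e*) and 0 lower, against 0.481% and 0.761% of all genes. The median difference was 0.73 for the 9 genes and -0.01 for all. For RSM it gave 3 higher (*Clec10a*, *Clec7a*, *Clec4e*) and 0 lower, against 1.22% and 0.921%, with medians of 0.79 and 0.01. Without regard to the fold threshold, 5 of 9 genes passed the FDR for HC3, all positive, and 7 for RSM, 6 positive and *Msr1* negative. Of all 14979 genes, 461 passed the FDR as positive and 509 as negative for HC3, and 757 and 620 for RSM. Of the 7 macrophage markers, 4 passed as positive and 0 as negative for HC3, and 5 and 0 for RSM. Their median differences were 0.57 and 0.49. At an unadjusted p under 0.05, 0 of the 9 genes were negative for HC3 and 1 for RSM, and DESeq2 also called 0 of them lower for each. Without replicate 3, the calls fell to 0 for HC3 and 1 for RSM, and the calls over all genes fell from 186 to 41 and from 321 to 131.

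HC3 and RSM were also compared directly. In M[0], HC3 was called lower than RSM for *Mrc1*, *Clec4n*, *Msr1* and *Stab1* and higher for *Clec7a*, which is 4 and 1 of 9 genes against 1.44% and 1.61% of all genes, with medians of -0.97 and 0.02. The log2 differences (HC3 minus RSM) were -1.77 for *Mrc1*, -1.97 for *Clec4n*, -1.23 for *Msr1*, -1.40 for *Stab1* and 1.06 for *Clec7a*, with FDR from 1.21e-08 to 0.00145. The *Clec7a* difference was 0.998 without replicate 1 and 0.988 without replicate 2, just under the threshold. In M[IL-4], HC3 was called lower for *Mrc1* (-1.55), *Clec4e* (-1.01), *Clec4n* (-1.62) and *Stab1* (-1.60), which is 4 of 9 against 1.59% of all genes, and 0 were called higher against 1.21%, with medians of -0.75 and 0.00. For *Clec12a* the HC3 level in M[IL-4] exceeded that of RSM by 0.72 on the log2 scale (SE 0.12, FDR = 0.000312), short of the fold threshold. It was the 1 gene higher at an unadjusted p under 0.05, and DESeq2 called 0 higher. The *Clec4e* value lay at the threshold and was -0.998 with DESeq2, -0.992 with no count filter, -0.964 without replicate 1 and -0.955 without replicate 3 (FDR = 0.123). For *Clec7a* in M[IL-4] the difference was -0.02 (SE 0.20, FDR = 0.970).

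Related genes were read from 3 lists. Of 42 other C-type lectins, 21 were tested, and HC3 in M[0] lowered 7 and raised 2, whereas RSM in M[0] lowered 5 and raised 1. In M[IL-4], HC3 lowered 4 and raised 1 (2 with the replicate block) and RSM lowered 5 and raised 3. The shares over all genes in these 4 comparisons were 5.53% to 6.51% lower and 4.72% to 5.93% higher. The number raised with HC3 in M[0] was 1 without replicate 2 and 0 without replicate 3. *Cd72*, a lectin-like receptor with an inhibitory motif, had the lowest FDR in all 4 comparisons, with group means of 327, 62.7 and 52.5 CPM for Veh, HC3 and RSM in M[0] and 379, 106 and 124 CPM in M[IL-4]. Exons of *Tesk1* on the opposite strand overlap 41.6% of the exonic length of *Cd72*, so its counts may include reads of that gene. *Cd207* (langerin) fell from 8.43 to 0.504 CPM and *Clec4b1* from 9.75 to 0.314 CPM with RSM in M[0]. *Cd302* fell from 61.0 to 29.7 CPM and *Clec4a1* from 181 to 62.0 CPM with HC3 in M[0]. In M[IL-4], *Clec4b1* fell from 18.8 to 2.87 CPM and *Clec4a2* from 135 to 57.1 CPM with HC3, and *Thbd* (thrombomodulin) rose from 19.5 to 44.8 CPM with RSM. With Veh, IL-4 raised 2 of these lectins and lowered 4, where 2.83% of all genes were called higher and 3.83% lower. Among those lowered was *Cd93* (834 to 413 CPM), which is a receptor of myeloid and endothelial cells. The number raised was 1 without replicate 2 or replicate 3, and the number lowered was 2 without replicate 1.

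Of 24 other scavenger receptors, 21 were tested. None was called higher by either inhibitor in either polarization with edgeR, where 4.72% to 5.93% of all genes were called higher. In M[0], 6 (HC3) and 5 (RSM) were called lower, and in M[IL-4], 6 and 7, against 5.53% to 6.51% of all genes, and the medians were -0.56, -0.61, -0.38 and -0.31. At an unadjusted p under 0.05, 2 genes were higher with RSM in M[IL-4] and 0 in the other 3 comparisons, and DESeq2 called 0 in each. 1 gene of the list was called higher with RSM in M[IL-4] under both replicate blocks and in the fit of the compared groups alone. *Cxcl16*, a membrane chemokine that binds oxidized lipids, had the lowest FDR in all 4, falling from 215 CPM to 50.2 (HC3) and 77.3 (RSM) in M[0] and from 85.2 to 30.6 and 35.3 in M[IL-4]. Exons of *Zmynd15* on the opposite strand overlap 18.3% of its exonic length. *Cd163*, the haemoglobin scavenger receptor, fell from 18.1 to 2.54 CPM with HC3 in M[0], and from 23.1 to 3.68 (HC3) and 6.00 CPM (RSM) in M[IL-4]. *Cd14* fell from 611 to 229 CPM with HC3 in M[0], and *Cd5l* fell from 255 to 33.3 CPM and *Scarb1*, the receptor for high-density lipoprotein, from 118 to 52.3 CPM with RSM in M[0]. In M[IL-4], *Scarb1* fell from 99.2 to 47.9 CPM with HC3 and to 47.5 CPM with RSM. With Veh, IL-4 lowered *Cd14* from 611 to 130 CPM and *Cxcl16* from 215 to 85.2 CPM and raised *Cd36*, a fatty acid and lipoprotein receptor, from 1258.9 to 2616.9 CPM. *Cd36* was the 1 gene of the list called higher, against 2.83% of all genes, and 0 were with library-size scaling or without replicate 2.

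Of 40 genes for signalling from lectins and their cytokine targets, 38 were tested, and 8 (HC3) and 6 (RSM) fell in M[0] and 5 with each inhibitor in M[IL-4], with 1 higher each time. The 1 of 38 higher is near or below the share of all genes called higher (4.72% to 5.93%), and 5.53% to 6.51% of all genes were called lower. The gene that rose in all 4 was the cytokine *Il6*, with for example 0.0746 CPM in Veh M[IL-4] and 2.98 CPM with RSM. That Veh mean is below the 0.153 to 0.176 CPM that 3 counts in 1 library give, so the size of this rise is uncertain. The lowest FDR in all 4 was that of *Ptpn6*, which encodes the phosphatase SHP-1 that inhibitory lectins recruit. *Ptpn6* fell from 328 CPM to 115 (HC3) and 137 (RSM) in M[0] and from 228 to 98.9 and 110 CPM in M[IL-4]. Opposite-strand exons of other genes overlap 6.96% of the exonic length of *Ptpn6* and 12.8% of that of *Pycard*. *Nfatc2*, a transcription factor activated downstream of Dectin-1, fell from 96.9 CPM to 22.6 (HC3) and 45.0 (RSM) in M[0] and from 43.4 to 15.5 CPM with HC3 in M[IL-4]. *Nlrp3* fell from 71.6 to 29.8 CPM with HC3 in M[0], *Il10* from 4.43 to 0.609 CPM with RSM in M[0], *Pycard* from 47.2 to 22.7 CPM with HC3 in M[IL-4] and *Malt1*, a partner of CARD9, from 91.2 to 43.4 CPM with RSM in M[IL-4]. With Veh, IL-4 lowered 4 genes, among them *Nlrp3* (71.6 to 30.5 CPM) and *Nfatc2* (96.9 to 43.4 CPM), and raised 2, among them the Syk-linked kinase *Prkcd* (354 to 789 CPM). In this comparison 3.83% of all genes were called lower and 2.83% higher. The number raised was 1 without replicate 2.

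**Figure D4:**
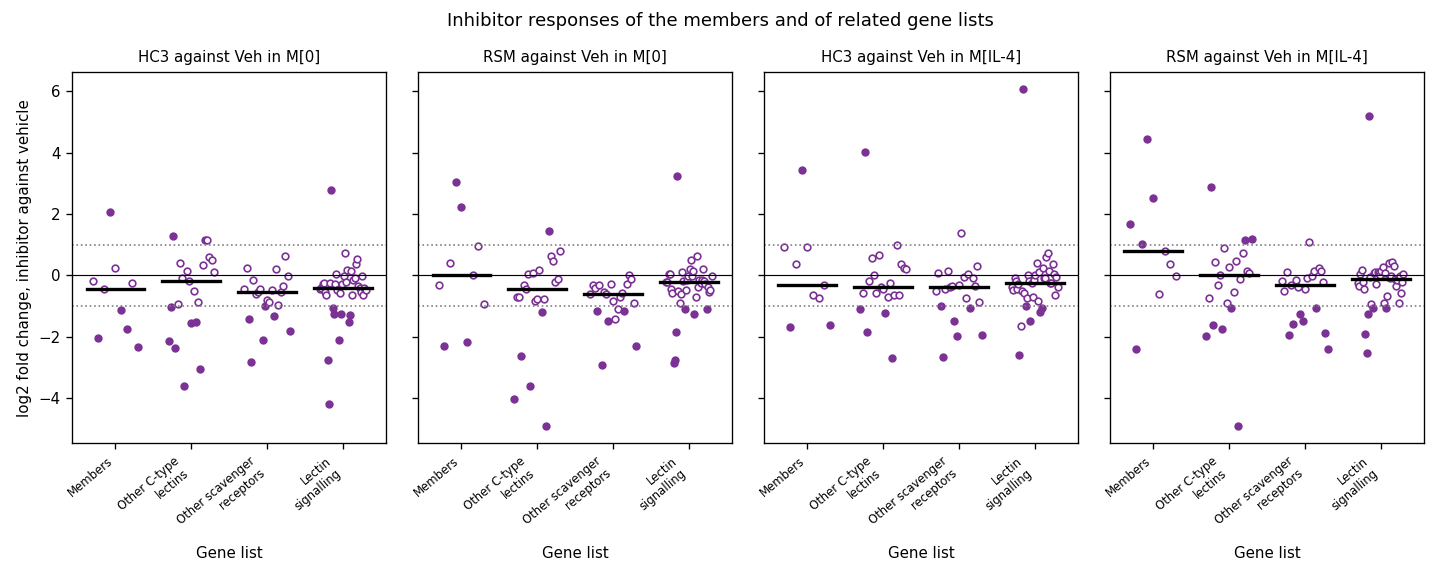
log2 fold change of inhibitor against vehicle (vertical axis) for single genes (points) of 4 gene lists (horizontal axis, "Members" being the 9 tested receptors) in the 4 inhibitor comparisons (panels). Filled points passed the FDR and fold criteria, thick lines are list medians and dotted lines mark -1 and 1, and the medians of the other scavenger receptors lie at -0.61 to -0.31.

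The gene with the most similar pattern was sought for each receptor among 10965 genes by Pearson's r of log2 CPM over the 18 libraries, which fall into 6 groups and share their treatments. It was *Abcd2* for *Mrc1* (0.981), *Plek* for *Clec10a* (0.987), *Tor3a* for *Clec7a* (0.972) and *Ndst1* for *Clec4d* (0.970). It was *Aoah* for *Clec4e* (0.978), *Il13ra1* for *Clec4n* (0.972), *Tlr13* for *Clec12a* (0.985), *Klf7* for *Msr1* (0.934) and *Nfatc2* for *Stab1* (0.979).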

How the data were processed

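RNA of 18 libraries was sequenced after poly-T selection of mRNA. The authors trimmed read pairs with fastp, aligned them to GRCm38 with STAR and retained pairs whose mapping quality was 40. Duplicates were marked with Picard but not removed, and exonic pairs were summed per gene with featureCounts. The deposited values are raw counts per Ensembl gene, in 1 table in which every sample column was used. Groups and replicate numbers were taken from the sample labels. The receptors and the gene lists were chosen with earlier results of these data known. Symbols and positions came from GENCODE M21 on GRCm38 and were found for 55144 of 55385 genes.

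A gene entered the tests if 2 or more libraries had 10 or more counts (14979 genes). Tests used edgeR 4.0.16 in R 4.3.3, with TMM scaling and its quasi-likelihood functions glmQLFit and glmQLFTest, in a single fit with a coefficient per group, and the SE is the log2 fold change divided by the root of F. The p-values set each difference against the spread between libraries within the groups. The steps were tested on simulated data. Genes named outside the receptors and the cell type markers are up to 3 of each list with the lowest FDR among called genes in each inhibitor comparison and in M[IL-4] against M[0] with Veh, and the most similar gene of each receptor. *Clec1a* is named for its position alone. Residuals of same-numbered libraries of 1 polarization correlated at 0.110 to 0.372, above 0.1 in 18 of 18 pairs, and across polarizations in 12 of 27. Replicate numbers were therefore taken to pair libraries within a polarization, but the main fit has no replicate term. Its SE and FDR leave this pairing out, and blocks by replicate number were run only as alternatives. Alternatives were a replicate block, a block within each polarization, DESeq2 1.42.0, a fit of only the groups compared, filterByExpr, no count filter, library-size scaling, and leaving out each replicate number. Near-identical transcripts were sought with blastn 2.17.0, and figures were drawn with matplotlib 3.10.9 in Python 3.11.15. Depth was 17457796 to 19522255 counts per library. Limits that a count of 0 allows cover counting error only.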

Additional observations from a re-analysis of the deposited data

Results flagged for a closer look

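The IL-4 effect (M[IL-4] minus M[0], log2) differed from that with Veh, by a tested interaction in edgeR with an FDR under 0.05 over all genes, in 12 of 18 tests of 9 receptors and 2 inhibitors. Of all 14979 genes, 461 passed the same criterion as positive and 509 as negative for HC3, and 757 and 620 for RSM. Of the 7 macrophage markers, 4 were positive and 0 negative for HC3, and 5 and 0 for RSM. Of 21 other C-type lectins the counts were 4 and 1, and 5 and 2. Of 21 other scavenger receptors they were 2 and 1, and 5 and 1, and of 38 lectin signalling genes 10 and 1, and 6 and 1. More positive than negative differences were thus not particular to the receptors. The receptor tests share their Veh libraries. With HC3 the differences were 1.01 for *Mrc1*, 1.10 for *Clec10a*, 0.80 for *Clec4d*, 1.36 for *Clec4e* and 0.73 for *Stab1*. With RSM they were 0.79 for *Mrc1*, 1.98 for *Clec10a*, 1.57 for *Clec7a*, 0.62 for *Clec4d*, 1.40 for *Clec4e*, -0.59 for *Msr1* and 0.94 for *Stab1*. For *Mrc1*, *Clec10a* and *Clec7a* a positive difference is a larger rise with IL-4 on the log2 scale, and for *Clec4d*, *Clec4e* and *Stab1* a smaller fall. These are ratios, and the M[0] levels they start from also differed. Mean *Clec4e* went from 26.7 to 5.01 CPM with Veh, but from 112 to 53.6 with HC3 and 218 to 108 with RSM. Mean *Mrc1* went from 457 to 1783.2 CPM with Veh, 134 to 1057.5 with HC3 and 459 to 3089.7 with RSM. For *Clec7a* these means were 256 to 764 CPM with Veh and 56.4 to 497 with RSM.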

How the results depend on the processing

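Of 963 values (9 receptors, 11 comparisons and their alternatives), 925 kept their direction and their side of the criteria, 19 no longer passed, 6 newly passed and 13 changed sign, none of the last past the criteria. Numbers of receptors called were 3 for each interaction, and ranged from 0 to 2 for HC3 and from 1 to 3 for RSM when each replicate number was left out, the lowest without replicate 3. The sign changed for *Clec10a* with HC3 in M[0] (-0.466 to 0.106 over the replicates left out) and RSM in M[0] (-0.517 to 0.017), *Mrc1* with RSM in M[0] (-0.001 with the replicate block within each polarization and -0.087 to 0.073 with a replicate left out), and *Stab1* with RSM in M[IL-4] (0.040 with library-size scaling and -0.053 to 0.021 with a replicate left out). It also changed for *Msr1* with IL-4 under Veh (-0.035 with library-size scaling and -0.036 to 0.059 with a replicate left out). With a replicate left out it further changed for *Msr1* with IL-4 under HC3 (-0.148 to 0.108) and in the HC3 interaction (-0.112 to 0.050), and for HC3 against RSM in *Clec10a* in M[0] (-0.018 to 0.287) and *Clec7a* in M[IL-4] (-0.098 to 0.070). With the replicate block, 99 of 99 receptor values kept their call, and HC3 in M[0] again called 5 receptors. The block within each polarization, not run for M[IL-4] against M[0], gave 288 genes called in the HC3 interaction, where 186 were called without it. Without replicate 3, genes called fell from 594 to 344 (IL-4 with HC3), 638 to 419 (IL-4 with RSM), 456 to 257 (HC3 against RSM in M[0]) and 419 to 218 (in M[IL-4]), and without replicate 1 the HC3 interaction gave 116. The cause was not tested. Depth limits *Marco*, and the 3 libraries per group limit differences near the thresholds.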
